A study of Mus musculus with 18 samples.

Results

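Small leucine-rich proteoglycans are secreted proteins built around a row of leucine-rich repeats. They sit on collagen fibrils of connective tissue. The 10 genes described here were chosen by symbol (Dcn, Bgn, Aspn, Fmod, Lum, Prelp, Kera, Omd, Ogn and Podn). All 10 were found among the 20325 genes of each deposited table, and the rule is this list of symbols, set with earlier results of these data known.

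The samples were 18 RNA-seq libraries of C3H10T1/2, a mouse embryo mesenchymal line that can form cartilage, bone and fat, and of tumors grown from it. Cultured cells stably carried FLAG-HA-tagged histone H3.3, either wild type (n = 2), with lysine 36 changed to methionine (H3.3K36M, n = 2), or carried H3.1 with the same change (H3.1K36M, n = 2). Parental cells, with no tagged histone named, received scramble siRNA (control siRNA, n = 3) or siRNAs to the H3K36 methyltransferases Nsd1, Nsd2 and Setd2 (HMT siRNA, n = 3). All cultured cells were at passages 10 to 15 in medium with 10% serum. The H3.3K36M tumors (n = 6) grew for 5 to 6 weeks from 2000000 H3.3K36M cells placed with Matrigel under the skin of both flanks of athymic female SCID mice aged 6 to 8 weeks, so a tumor library can hold RNA of the mouse host as well. The labels do not say whether a line is a single clone, whether libraries of a group came from separate cultures, or which tumors shared a mouse. P-values therefore measure the spread between libraries, which may be technical.

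Levels are normalised estimated read counts. The siRNA table holds the 10 libraries of wild-type, H3.3K36M, control siRNA and HMT siRNA cells, and the xenograft table holds the wild-type, H3.3K36M, H3.1K36M and tumor libraries. The tables were scaled separately, so levels are compared within a table, and the wild-type and H3.3K36M libraries appear in both. Depth was 13993307 to 56041798 estimated reads per library. Of 12 mesenchymal markers, 11 or 12 were at 10 or more in every cultured library of each group, the exception being Nt5e. The siRNA targets were lower with HMT siRNA: Setd2 spanned 1063 to 1224 against 3114 to 3401, Whsc1 (Nsd2) 1019 to 1121 against 1565 to 1607, and Nsd1 3189 to 3422 against 4392 to 5007. A gene was called changed at an adjusted p below 0.05 (limma, Benjamini-Hochberg over all genes tested). Fold changes are log2 differences of level + 1, given with the standard error. This scale understates the change of low genes.

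By sequence, decorin (Dcn), biglycan (Bgn) and asporin (Aspn) form class I of the family, and fibromodulin (Fmod), lumican (Lum), PRELP (Prelp), keratocan (Kera) and osteoadherin (Omd) form class II. Osteoglycin (Ogn) belongs to class III, and podocan (Podn) to a later class. The proteins bind fibrillar collagens and set fibril spacing and thickness. Several carry chondroitin, dermatan or keratan sulfate chains, and several bind TGF-beta or other ligands, so that cartilage, tendon, bone, skin and cornea depend on them.

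The 10 genes lie in a few chromosomal groups. In the mouse annotation Prelp and Fmod are close neighbours on chromosome 1, with the related Optc beside them. Dcn, Lum and Kera follow each other on chromosome 10 next to Epyc, and Aspn, Omd and Ogn follow each other on chromosome 13 next to Ecm2. Bgn is on the X chromosome and Podn on chromosome 4. Exons of Prelp overlap those of Gm15851 on the opposite strand, and no other member overlaps a gene in its exons. The sources used here do not say whether counting used strand, so reads of that overlap cannot be told apart.

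The 250 bases upstream of the annotated start are shown for both chromosome 1 genes and for the chromosome 13 genes Aspn and Ogn, which were among the members with large drops, and for Bgn, the most abundant member per kilobase. They are RefSeq sequences of build GRCm38.p6, 5′ to 3′ on the strand of the gene, and capitals mark CpG dinucleotides.
Prelp (chr1:133921402-133921651, minus strand): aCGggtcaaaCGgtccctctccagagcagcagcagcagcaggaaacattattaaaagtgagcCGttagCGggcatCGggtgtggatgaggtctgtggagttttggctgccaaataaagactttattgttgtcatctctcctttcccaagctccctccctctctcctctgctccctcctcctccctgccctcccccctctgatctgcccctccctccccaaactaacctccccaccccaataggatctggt
Fmod (chr1:134037004-134037253, plus strand): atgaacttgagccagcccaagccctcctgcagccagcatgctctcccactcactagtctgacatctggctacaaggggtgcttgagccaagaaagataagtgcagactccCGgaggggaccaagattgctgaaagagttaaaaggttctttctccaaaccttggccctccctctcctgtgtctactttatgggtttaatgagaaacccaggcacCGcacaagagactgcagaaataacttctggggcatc
Aspn (chr13:49544193-49544442, plus strand): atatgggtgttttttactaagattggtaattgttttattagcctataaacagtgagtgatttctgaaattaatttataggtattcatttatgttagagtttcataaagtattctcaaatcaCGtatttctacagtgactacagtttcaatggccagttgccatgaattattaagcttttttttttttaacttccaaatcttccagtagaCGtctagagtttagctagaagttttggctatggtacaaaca
Ogn (chr13:49607765-49608014, plus strand): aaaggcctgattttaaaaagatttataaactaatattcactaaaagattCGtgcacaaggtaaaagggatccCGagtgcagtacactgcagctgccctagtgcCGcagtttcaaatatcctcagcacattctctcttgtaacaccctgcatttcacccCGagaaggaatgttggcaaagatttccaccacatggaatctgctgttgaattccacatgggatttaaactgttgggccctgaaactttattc
Bgn (chrX:73483351-73483600, plus strand): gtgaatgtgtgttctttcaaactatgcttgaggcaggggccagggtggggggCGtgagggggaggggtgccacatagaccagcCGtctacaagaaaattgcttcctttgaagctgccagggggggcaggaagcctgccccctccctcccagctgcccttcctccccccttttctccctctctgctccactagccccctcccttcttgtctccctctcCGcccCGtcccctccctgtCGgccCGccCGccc
The Fmod and Aspn stretches each hold 2 CpG and the Ogn stretch 4. Prelp has 5 and Bgn has 7. Over 32851 RefSeq windows of the same length the quartiles were 2, 6 and 16 CpG, so all 5 lay under the upper quartile. GC content of these 5 ran from 30.0% in Aspn to 64.4% in Bgn. Among members not printed, Omd and Kera have 1 CpG each. Podn has windows with 7 and 32 CpG, the latter above the upper quartile. The letters TATAAA, searched on both strands, occur in 12.37% of all windows. Among the windows of 8 members, Aspn and Ogn had 2 matches each and the others had 0. The 2 matches of Ogn overlap in a single stretch, 1 on each strand, while those of Aspn lie apart. The letters ACAAT, the core that SOX factors bind, were found in Prelp, Omd and Aspn with 1 match each and in Kera with 2, against 27.66% of all windows with any. Windows for Dcn and Lum are not shown.

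In wild-type cells the family was led by Bgn. Per kilobase of the longest coding transcript, Bgn made 57.4 ± 0.258% of the summed level of the 10 genes (mean ± SD, n = 2). Prelp followed with 14.7 ± 0.0714%, Ogn with 14.6 ± 0.217% and Aspn with 10.1 ± 0.0764%. Prelp and Ogn did not differ beyond their spread in that order, since their shares overlapped. Omd made 1.62 ± 0.0227%, Fmod 1.04 ± 0.0330% and Dcn 0.484 ± 0.0281%, while Lum, Podn and Kera were each below 0.05%. C3H10T1/2 cells with wild-type H3.3 thus carried mostly Bgn, Prelp, Ogn and Aspn message.

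**Figure D1:**
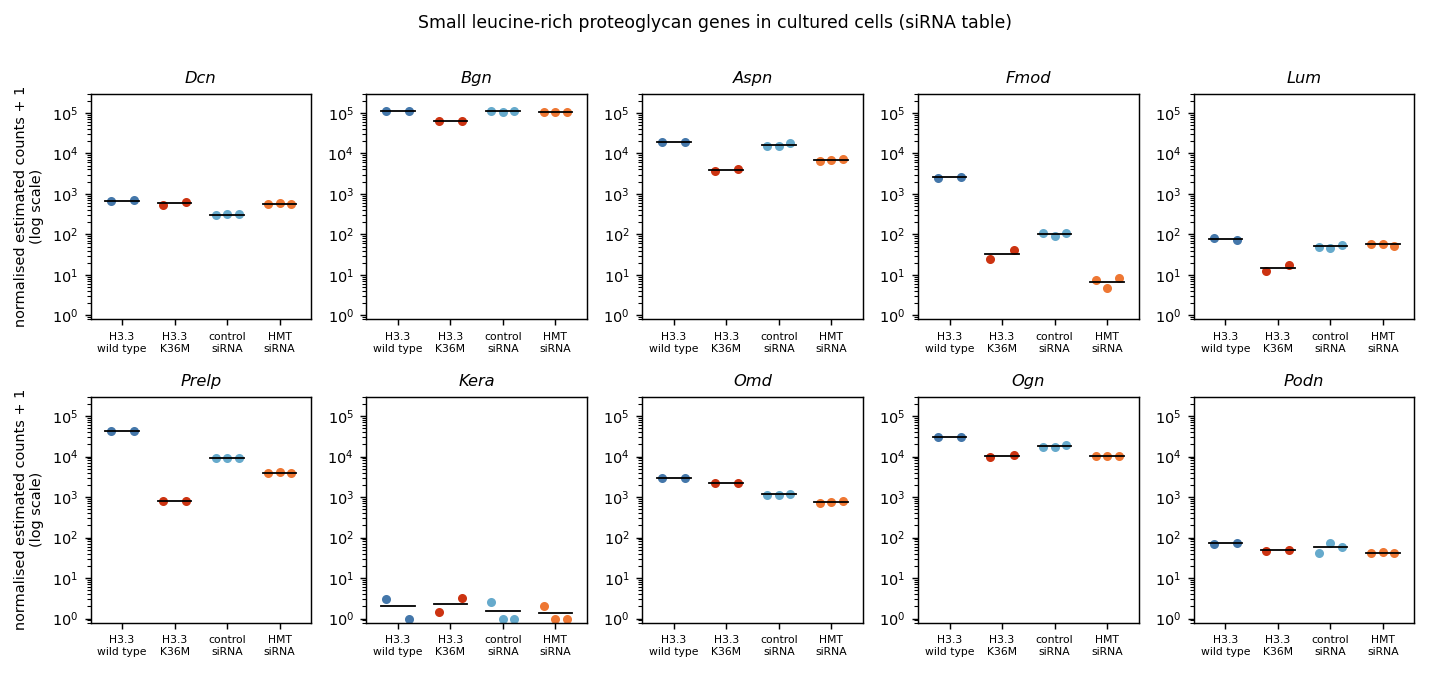
Normalised estimated counts + 1 (log axis) of the 10 genes in the 10 libraries of the siRNA table, with points for libraries and lines for group means. Prelp stood at 42472 and 42695 in wild-type cells and at 819.8 and 816 in H3.3K36M cells, while Bgn stood at 110889 and 111529 and at 63747 and 64204.

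All 9 members tested fell in H3.3K36M cells against H3.3 wild-type cells. Of all 13186 genes tested, 33.3% were called lower, 37.5% higher and 70.8% in either direction. The median log2 change was -1.56 over the members and 0.02 over all genes tested. Prelp and Fmod, the chromosome 1 neighbours, fell most, and Dcn fell least. Kera, with 3 estimated reads or fewer in every cultured library, was not tested.

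Prelp, which encodes a protein that anchors basement membranes to the matrix beneath, had levels of 42472 and 42695 in wild-type cells. In H3.3K36M cells its levels were 819.8 and 816. The groups did not overlap, and the mean was 52.1-fold lower (-5.70 ± 0.04, adjusted p = 3.50e-25). Fmod, whose product fibromodulin regulates collagen fibril thickness in tendon and cartilage, had levels of 2535 and 2683 in wild-type cells. Its levels in the mutant cells were 23.2 and 41.0, so the mean was 81.3-fold lower (-6.35 ± 0.26, adjusted p = 9.91e-14). Both genes therefore passed from a clear wild-type level to about 2% of it or less, 1.92% for Prelp and 1.23% for Fmod.

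Among the other class II genes, Lum and Omd moved by different amounts. Lum, which encodes a keratan sulfate proteoglycan of cornea and skin, stood at 78.4 and 71.5 in wild-type and 11.8 and 16.5 in H3.3K36M cells, with no overlap (-2.34 ± 0.21, adjusted p = 1.35e-08). Omd, which encodes a protein of mineralised bone, stood at 2937 and 2915 and then 2215 and 2188, a smaller drop without overlap (-0.41 ± 0.06, adjusted p = 3.00e-06). Kera, the keratocan gene of the cornea, was listed at 1.99 and 0 in wild-type cells and 0.438 and 2.16 in mutant cells, which is at or near 0 in both.

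In class I, Aspn fell most. Aspn, whose product binds collagen and TGF-beta, had levels of 18589.5 and 19019 in wild-type and 3616 and 4130.1 in H3.3K36M cells (-2.28 ± 0.08, adjusted p = 1.38e-10). Bgn, whose product carries a pair of glycosaminoglycan chains and can signal through Toll-like receptors, went from 110889 and 111529 to 63747 and 64204. That was a 1.74-fold lower mean with tight replicates (-0.80 ± 0.03, adjusted p = 1.18e-13). Dcn, whose product decorates collagen fibrils and binds TGF-beta, stood at 650.3 and 715 against 529.5 and 627 (-0.24 ± 0.08, adjusted p = 0.0159). The Dcn call was lost without wild-type replicate 2 (-0.17, adjusted p = 0.158) or without H3.3K36M replicate 1 (-0.12, adjusted p = 0.287).

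Ogn, the class III gene, whose product is found in bone and cornea, had levels of 29595 and 30590.4 in wild-type and 9731 and 10633 in mutant cells (-1.56 ± 0.05, adjusted p = 2.44e-15). Podn, which encodes podocan, a protein first found in the kidney glomerulus, stood at 70.2 and 74.1 and 45.8 and 48.9 (-0.60 ± 0.23, adjusted p = 0.0253). Groups did not overlap for either gene, but the Podn call was lost when any of the 4 libraries was left out, with adjusted p of 0.0612 to 0.106.

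Summed per kilobase over the 10 genes, the level was 80134 ± 686 in wild-type and 33644 ± 576 in H3.3K36M cells (SD, n = 2 each). The make-up shifted too: the share of Bgn was 78.6 ± 0.948% in H3.3K36M cells and that of Prelp was 0.673 ± 0.0136%. Chondrocyte markers moved with the family. Their summed level over 8 genes spanned 92009 to 93700 in wild-type and 8762 to 9271 in H3.3K36M cells, with 6 of 8 at 10 or more in both mutant libraries and Acan, the aggrecan gene, at 0 and 1.75. All 8 were called lower. In control siRNA against wild-type cells all 8 were called lower too, with sums of 33484 to 34854 in the control siRNA libraries. Tendon markers, a list of 5 that holds Kera, summed to 5816 to 5970.3 and 2765 to 2853, and 2 of the 4 tested were called lower and 2 higher. The 12 mesenchymal markers summed to 427144 to 435822 and 423193 to 458123. The part of these lists in the result was not tested. In bulk samples, fewer cells of a type and less RNA per cell cannot be told apart.

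**Figure D2:**
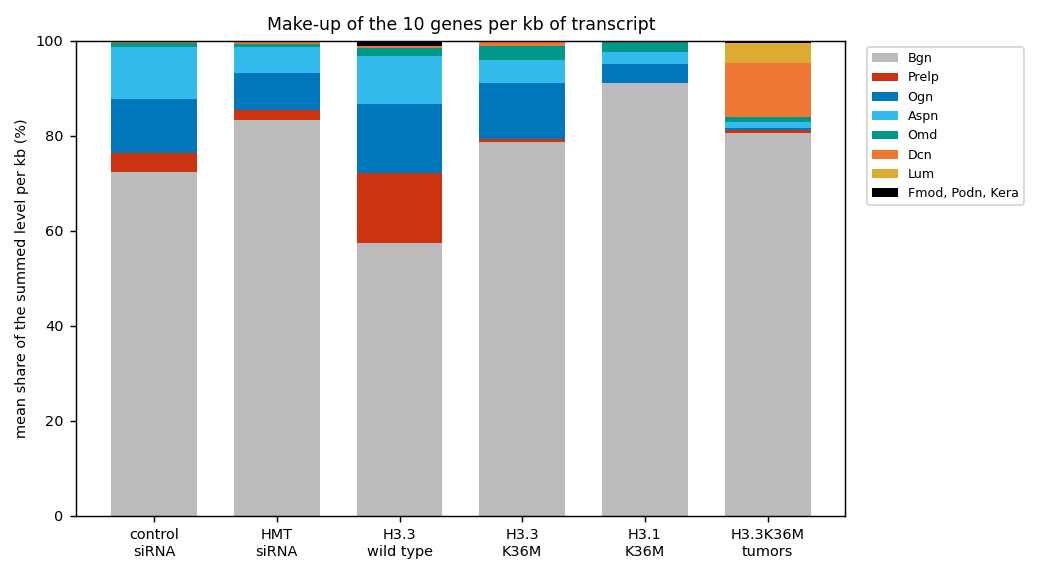
Stacked bars give the mean share (%) of each gene in the summed level per kilobase of the 10 genes, by group. Bgn made 57.4 ± 0.258% in wild-type and 91.0 ± 0.412% in H3.1K36M cells (SD), while Dcn and Lum made 11.3 ± 3.33% and 4.19 ± 0.845% in the tumors.

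With HMT siRNA, 5 of the 9 members tested fell against control siRNA, 1 rose and 3 were not called. Of the 13186 genes tested, 31.7% were called lower, 31.9% higher and 63.5% in either direction. Fmod, Aspn, Prelp, Ogn and Omd fell, and Dcn rose. The member median was -0.65, and that of all genes was 0.00.

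Fmod was at 108, 91.6 and 107 in control siRNA cells and at 6.64, 3.73 and 7.22 in HMT siRNA cells, a mean 17.4-fold lower (-3.95 ± 0.21, adjusted p = 9.73e-12). The HMT levels rest on 5 to 7 estimated reads per library and are imprecise. Prelp was at 9126, 9129 and 9079.8 with control siRNA and 3971, 4082 and 3895 with HMT siRNA (-1.19 ± 0.03, adjusted p = 4.83e-16). No library of the groups overlapped for these genes, and the mean Prelp level with HMT siRNA was 43.7% of that with control siRNA.

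The chromosome 13 genes fell together. Aspn stood at 15197, 15046 and 17943 with control siRNA and 6497, 6689 and 7169 with HMT siRNA (-1.24 ± 0.07, adjusted p = 1.02e-08). Ogn stood at 17337, 17365 and 19303 and 10347, 10399 and 10262 (-0.80 ± 0.04, adjusted p = 5.51e-12), and Omd at 1149, 1135 and 1199 and 694, 741 and 784 (-0.65 ± 0.05, adjusted p = 4.58e-10). The groups were apart for all 3 genes, and the step ran from 1.57-fold for Omd to 2.37-fold for Aspn. Of all genes tested, 31.7% were called lower here, and how many had groups apart was not counted.

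Dcn went the other way, from 293, 311 and 320 with control siRNA to 561, 601 and 572 with HMT siRNA, without overlap (0.91 ± 0.07, adjusted p = 1.41e-09). The remaining members had overlapping groups. Bgn was at 110606, 105930 and 109322 and then 106274, 106307 and 105938 (-0.03 ± 0.03, adjusted p = 0.304). Lum was at 48.6, 46.4 and 53.6 and then 58.7, 56.7 and 51.6 (0.17 ± 0.17, adjusted p = 0.421). Podn was at 41.0, 74.0 and 57.1 and 40.9, 42.5 and 40.2 (-0.43 ± 0.19, adjusted p = 0.0522). Its spread lay in the control libraries, and without control siRNA replicate 1 it was called lower (-0.64, adjusted p = 0.00334). Chondrocyte markers summed to 33484 to 34854 with control siRNA and 11963 to 12896 with HMT siRNA, tendon markers to 2237 to 2330.3 and 889 to 945, and their part in these values was not tested.

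The mutant and the knockdown share no library, so their responses could be set against each other in a test of the difference. This difference was called for 8 of 9 members, 7 toward a lower H3.3K36M response and 1 toward a higher, against 27.4% and 27.5% of all 13186 genes (54.9% in either direction). Prelp differed most (-4.51 ± 0.05, adjusted p = 2.19e-21), having fallen 52.1-fold with the mutant and 2.29-fold with the knockdown. For Lum the difference was -2.50 ± 0.27 (adjusted p = 3.64e-07) and for Fmod -2.41 ± 0.33 (adjusted p = 6.66e-06). Dcn, which rose with the knockdown, differed by -1.15 ± 0.11 (adjusted p = 5.32e-08). Bgn (-0.77), Ogn (-0.77) and Aspn (-1.04) were also lower in the mutant response. Omd alone among the members had the larger drop with the knockdown (0.24 ± 0.07, adjusted p = 0.00868), and Podn was not called (-0.17 ± 0.29, adjusted p = 0.647). Podn was called under quantile scaling (-0.75, adjusted p = 0.0326).

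The reference groups of these responses were themselves apart, which the difference above takes in. In control siRNA cells against H3.3 wild-type cells, 7 of 9 members were lower, against 30.4% of all genes (28.4% were higher and 58.8% called in either direction). Fmod stood at 3.92% of its wild-type level (-4.66 ± 0.23, adjusted p = 5.25e-12) and Prelp at 21.4% (-2.22 ± 0.03, adjusted p = 3.04e-19). Omd (-1.33), Dcn (-1.14), Ogn (-0.74), Lum (-0.59) and Aspn (-0.23) were also lower, and Bgn (-0.03 ± 0.03, adjusted p = 0.346) and Podn (-0.37 ± 0.21, adjusted p = 0.140) were not called. The tagged histone, the siRNA treatment and any difference in culture cannot be told apart here. The Lum call was lost without wild-type replicate 1 (adjusted p = 0.102), and the Aspn call without either wild-type library or control siRNA replicate 1 or 2 (adjusted p of 0.0555 to 0.135). Without control siRNA replicate 2, Podn was called lower (-0.57, adjusted p = 0.0210). In level, every HMT siRNA library lay under both H3.3K36M libraries for Fmod and above both for Prelp.

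**Figure D3:**
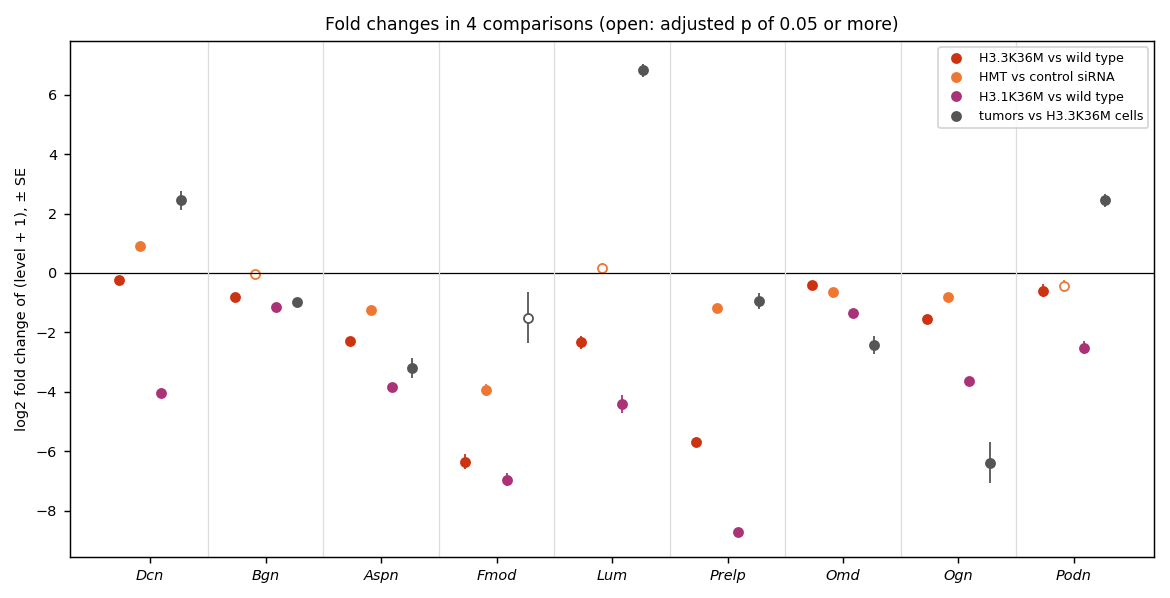
Log2 fold change of level + 1 (± SE) of the 9 tested genes in 4 comparisons. Open points had an adjusted p of 0.05 or more, and Lum lay at -2.34 in H3.3K36M cells and at 6.82 in the tumors against those cells.

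The H3.1K36M line carried the same lysine-to-methionine change on another histone H3 variant. All 9 members tested were lower there than in H3.3 wild-type cells, against 38.4% of the 13404 genes tested (41.1% were higher and 79.5% called in either direction), with a median of -3.85 over the members and 0.02 over all genes. All 9 were lower also than in H3.3K36M cells, against 32.8% of all genes (35.4% were higher and 68.2% called in either direction), with a median of -1.88 over the members and 0.01 over all genes. These comparisons share libraries with each other and with the H3.3K36M comparison, so the values below are set side by side. No line with wild-type H3.1 was among the samples. The H3 variant, its K36M change and the line itself therefore cannot be told apart against H3.3 wild-type cells. Nor can the variant and the line be told apart between the mutant lines.

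Prelp in the xenograft table stood at 57148 and 57801 in wild-type, 1081 and 1077 in H3.3K36M and 128 and 143 in H3.1K36M cells. The 3 groups were apart, and H3.1K36M cells lay 7.96-fold under H3.3K36M cells (-2.99 ± 0.05, adjusted p = 1.43e-15). Fmod had levels of 3411 and 3633, 30.6 and 54.1 and 28.6 and 25.9 in the same order. The H3.1K36M line lay 1.56-fold under the H3.3K36M line (-0.57 ± 0.21, adjusted p = 0.0397). That call was lost without H3.3K36M replicate 2 (-0.17, adjusted p = 0.293), without either H3.1K36M library (adjusted p of 0.132 and 0.231) and under quantile scaling (-0.052, adjusted p = 0.872).

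Dcn separated the mutant lines most among the members. Its levels were 875 and 967 in wild-type, 698 and 828 in H3.3K36M and 61.4 and 49.8 in H3.1K36M cells. H3.1K36M cells thus held 6.04% of the wild-type level (-4.03 ± 0.11, adjusted p = 4.41e-14), and 13.7-fold less than H3.3K36M cells (-3.76 ± 0.11, adjusted p = 6.58e-13). Among all 13404 genes, Dcn ranked 63 from the lowest in the comparison of the mutant lines. Its chromosome 10 neighbour Lum had 106 and 96.7, 15.6 and 21.8 and 4.88 and 2.88, the last resting on 7 and 3 estimated reads (-2.03 ± 0.31 between the mutant lines, adjusted p = 4.58e-05).

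The chromosome 13 genes followed the same order of lines. Ogn stood at 39821 and 41413, 12828 and 14035 and 3124 and 3346 in wild-type, H3.3K36M and H3.1K36M cells (-2.05 ± 0.04 between the mutant lines, adjusted p = 3.96e-14). Aspn stood at 25013 and 25748, 4767 and 5452 and 1713 and 1817 (-1.53 ± 0.06, adjusted p = 6.77e-10). Omd stood at 3952 and 3946, 2919.6 and 2889 and 1545 and 1541 (-0.91 ± 0.04, adjusted p = 2.40e-11). In each of the 3 genes every H3.1K36M library lay under every H3.3K36M library, and those under both wild-type libraries. How many of all genes had this order of libraries was not counted. Bgn fell to 69218 and 67369.9 in H3.1K36M cells from 84039.8 and 84747 in H3.3K36M cells (-0.31 ± 0.03, adjusted p = 1.25e-07). Podn fell to 19.6 and 13.4 from 60.4 and 64.5 (-1.88 ± 0.22, adjusted p = 2.71e-06). Kera was listed at 0 in both H3.1K36M libraries. The summed level per kilobase was 31022 ± 453 (SD, n = 2), of which Bgn made 91.0 ± 0.412%.

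Chondrocyte markers were lower in both mutant lines than in wild-type cells, while tendon markers were mixed. The 8 chondrocyte markers, all called lower than in wild-type cells, summed to 124561 to 126077 in wild-type, 11565 to 12222 in H3.3K36M and 13206 to 13208.5 in H3.1K36M cells. In H3.1K36M cells 5 of 8 were at 10 or more in both libraries and Acan was at 0 in both. Between the mutant lines, where all 9 members were lower, 2 of these markers were higher and 4 lower in H3.1K36M cells. Tendon markers summed to 7825 to 8083, 3645 to 3765 and 2256 to 2364 in the same order of lines. Most of that fall lay in Tnmd, the tenomodulin gene, at 7346 to 7617, 1903 to 2022 and 4.79 to 13.3. Scx rose in that order, at 180 to 187, 1309 to 1335 and 1686 to 1803. So did Mkx, at 266 to 288, 402 to 429 and 556 to 557. Of 3 tendon markers tested, 2 were called higher and 1 lower in H3.1K36M cells. This held against wild-type cells and against H3.3K36M cells. The 12 mesenchymal markers summed to 578264 to 586420, 558598 to 603962 and 565671 to 565899. The part of these lists in the result was not tested.

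**Figure D4:**
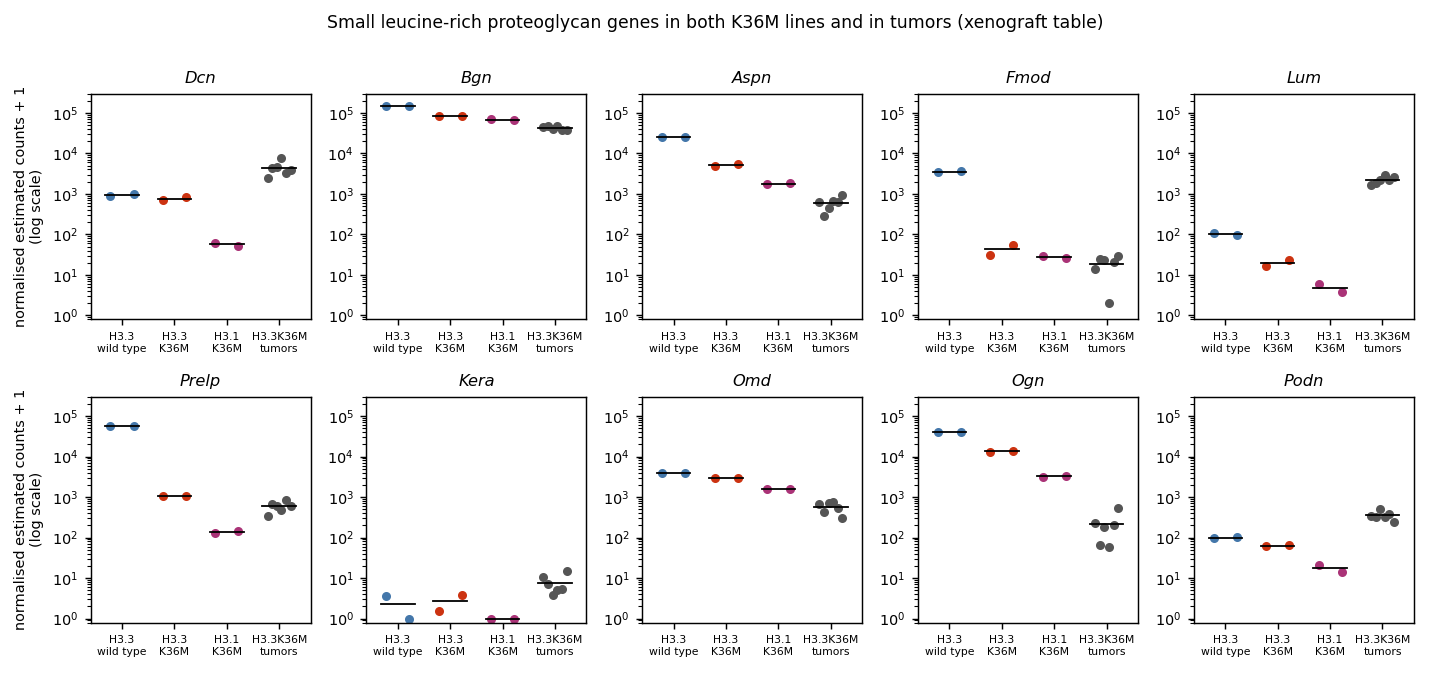
Normalised estimated counts + 1 (log axis) of the 10 genes in the xenograft table, with points for libraries and lines for group means. Lum spanned 1664 to 2927 in the 6 tumors against 15.6 and 21.8 in the H3.3K36M cells they came from, while Ogn spanned 56.7 to 529.9.

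The tumors split the family. Against cultured H3.3K36M cells, Lum, Dcn and Podn rose and Ogn, Aspn, Omd, Bgn and Prelp fell, so that 3 of 9 members were higher and 5 lower. Of the 14965 genes tested, 41.6% were called higher and 35.1% lower (76.7% in all), with a median log2 change of 0.13 over all genes and -0.99 over the members. The all-gene median was -0.12 under quantile scaling, and none of the 8 called members changed direction under any scaling tried.

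Lum spanned 1664 to 2927 with a median of 2182 in the 6 tumors, against 15.6 and 21.8 in H3.3K36M cells and 106 and 96.7 in wild-type cells. Every tumor lay above every cultured library (6.82 ± 0.21 against H3.3K36M cells, adjusted p = 8.45e-10), and the mean was 119.7-fold that of the H3.3K36M cells. Dcn spanned 2527 to 7792 with a median of 4127, against 698 and 828 in H3.3K36M cells (2.45 ± 0.32, adjusted p = 5.63e-05). Podn spanned 245 to 507 with a median of 334, against 60.4 and 64.5 (2.45 ± 0.22, adjusted p = 3.92e-06). All 3 genes also lay above wild-type cells, with Lum at 4.43 ± 0.21 (adjusted p = 1.65e-08), Dcn at 2.18 ± 0.32 (adjusted p = 0.000112) and Podn at 1.82 ± 0.22 (adjusted p = 2.84e-05). Per kilobase, Dcn (11.3 ± 3.33%) and Lum (4.19 ± 0.845%) came next after Bgn (80.5 ± 3.77%) in the tumors, where they had ranked behind Ogn, Aspn and Omd in the cultured cells.

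Ogn spanned 56.7 to 529.9 with a median of 191 in the tumors, against 12828 and 14035 in H3.3K36M cells (-6.38 ± 0.69, adjusted p = 1.28e-05). Its tumor mean was 63.8-fold lower, and every tumor lay far under every cultured library of the table. Aspn spanned 289 to 915 with a median of 627 (-3.19 ± 0.33, adjusted p = 1.04e-05) and Omd 299 to 748 with a median of 597 (-2.43 ± 0.30, adjusted p = 3.76e-05). Bgn spanned 37702 to 48585 with a median of 42711, a mean 1.98-fold lower with a small spread among tumors (-0.99 ± 0.12, adjusted p = 2.53e-05).

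Prelp spanned 333 to 852 with a median of 591 in the tumors, against 1081 and 1077 in the H3.3K36M cells (-0.94 ± 0.27, adjusted p = 0.00836). The groups did not overlap, but the call was lost without either H3.3K36M library (adjusted p of 0.0507 and 0.0508). Fmod spanned 1.01 to 28.7, against 30.6 and 54.1 (-1.52 ± 0.86, adjusted p = 0.130). Its lowest tumor, number 4, rested on 1 estimated read, and without it Fmod was called lower (-0.94, adjusted p = 0.0214), as it was under quantile scaling (-2.79, adjusted p = 0.00415). Kera spanned 2.72 to 13.8 with a median of 5.33 and was not tested. Against wild-type cells 6 members were lower, against 35.7% of all genes, and 3 were higher, against 44.1% (79.8% in all). There Prelp lay at -6.67 ± 0.27 (adjusted p = 4.43e-09) and Fmod at -7.91 ± 0.86 (adjusted p = 1.07e-05), below wild-type cells in every tumor.

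**Figure D5:**
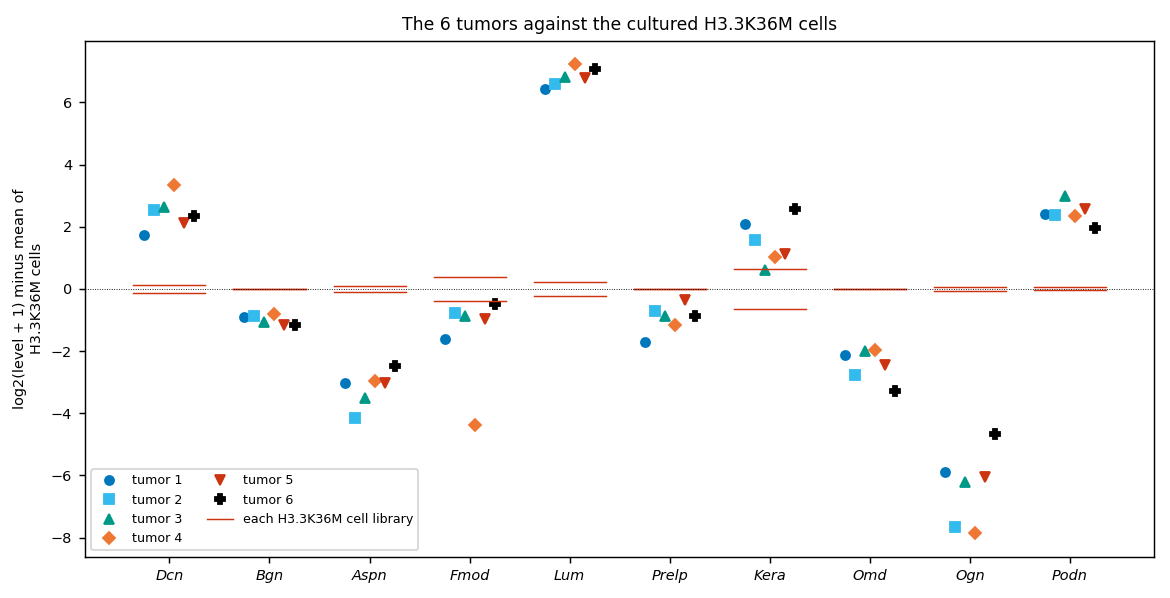
Log2(level + 1) of each tumor minus the mean of the 2 H3.3K36M cell libraries, by gene, with lines for the cell libraries themselves. All 6 tumors lie above 0 for Lum, Dcn and Podn and below 0 for Ogn, Aspn, Omd, Bgn and Prelp.

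Markers of other cells moved with the tumor results. Skin fibroblast markers, with 7 of 7 at 10 or more in every tumor, summed to 16376 to 34246 in the tumors and 1636 to 1642 in H3.3K36M cells. Pi16 gave most of this sum (11934 to 29254), and 4 of the 7 genes were called higher and 1 lower. Macrophage markers summed to 206288 to 307423 against 303 to 313, with C1qa and C1qb at 0 in the H3.3K36M cells. Endothelial markers summed to 9707 to 28895 against 223 to 242, and red cell markers to 7664 to 19469 against 836 to 885. The 12 mesenchymal markers summed to 255914 to 292658 in the tumors and 558598 to 603962 in the cells. Of these 12, 6 were called higher and 3 lower, and Col1a1 carried most of the drop of the sum (65865 to 88626 against 314927 to 355824), while Eng (5001 to 7089.6 against 1239.8 to 1328), Thy1 and Cd44 were at higher levels in every tumor. Chondrocyte markers summed to 2600.5 to 3214 against 11565 to 12222, with 6 of 8 at 10 or more in every tumor, 2 called higher and 2 lower. Tendon markers summed to 554 to 949.6 against 3645 to 3765, with 3 of 5 at 10 or more in every tumor. Of 4 tested, 1 was called higher and 3 lower. Tnmd was at 1.01 to 11.5 against 1903 to 2022, and Thbs4 at 22.1 to 158 against 3.80 to 4.05. Keratinocyte markers summed to 165 to 28872 against 162 to 178, with Krt1 at 0 in the cells, and adipocyte markers to 595 to 4284 against 18.5 to 21.8, with Plin1, Cidec and Lep at 0 in the cells. The part of these lists and of host cells in the rise of Lum, Dcn and Podn, and in the fall of the others, was not tested. Tumor 6, with the lowest skin fibroblast sum (16376) and the highest skeletal muscle sum (18200), had Lum at 2626 and Dcn at 3843, inside the range of the other tumors, and the highest Ogn (529.9). Tumor 4 had the highest Dcn (7792), Lum (2927) and Bgn (48585), and the lowest Ogn (56.7).

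Genes next to the members varied. They were taken as the pair of protein-coding genes on each side of each chromosomal group in RefSeq, and values are given for H3.3K36M cells, HMT siRNA and H3.1K36M cells in that order. On chromosome 13, Ecm2, a related leucine-rich repeat gene next to Aspn, was called lower in all 3 (from -4.51 in H3.3K36M to -6.71 in H3.1K36M cells), and Cenpp beyond it was at 0.08 (not called), 1.15 and -0.76. On the other side Nol8 was at 0.18, 0.12 (not called) and 0.54, and Iars was called higher in all 3 (0.62, 0.81 and 1.00). On chromosome 10, Epyc, the class III gene next to Kera, was called lower in H3.3K36M cells (-3.54) and with HMT siRNA (-2.38). In the H3.1K36M fit Epyc was at 10 or more in wild-type cells alone, so it could be tested there only if it differed. Its levels in H3.1K36M cells were 0 and 0.958, and that call is not used. Btg1 was called higher in all 3 (0.67, 0.17 and 1.01). In the tumors against H3.3K36M cells neither Ecm2 (-0.28, adjusted p = 0.492) nor Epyc (0.94, adjusted p = 0.107) was called. On chromosome 1, Atp2b4, beyond Optc, was at -1.61, -0.60 (not called) and -3.13. Btg2, on the far side of Fmod, was at -1.08, 0.24 and 0.54, and Chit1, the outermost gene there, was called lower in all 3 (-4.14, -2.08 and -5.89), so these windows set no limit to the pattern. Around Podn on chromosome 4, Cpt2 (-0.29, -0.46 and -0.32), Scp2 (-0.64, -0.35 and -0.74) and Echdc2 (-0.30, -0.51 and -0.83) were called lower in all 3, and Slc1a7 was called in none. Around Bgn, Haus7 was called higher in all 3 (0.55, 0.49 and 0.68) and Dusp9 was at 10 or more in the H3.3K36M libraries alone among cultured cells. Trex2 and Atp2b3 were not tested in cultured cells, Optc was tested in the xenograft table alone, and Gm46240 and Ccer1 were not analysed here.

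Some genes had 10 or more in libraries of 1 group of a fit only, so that a gene of that kind could be tested only if it differed. Such genes are left out of the counts and medians of the lists below, and of the shares of all genes beside them. Over the rest of all genes, 34.2% were lower and 35.9% higher in H3.3K36M cells, 32.6% and 32.4% with HMT siRNA, 38.4% and 41.5% in H3.1K36M cells against wild-type cells, and 38.2% and 38.0% in tumors against H3.3K36M cells. The medians over them were 0.01, 0.00, 0.02 and -0.01.

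Of 8 other leucine-rich repeat matrix genes, 6 were counted in H3.3K36M cells, with 3 lower and 2 higher, and 6 with HMT siRNA, with 3 lower and 1 higher. In H3.1K36M cells 4 were counted, 2 lower and 2 higher, and in the tumors 6, of which 0 were lower and 1 was higher, Optc (2.53 ± 0.56, adjusted p = 0.00199), from levels of 0.949 and 1.16 in the cells. The medians in these 4 comparisons were -0.52, -1.09, -0.32 and -0.03.

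Profiles most like 8 of the members, over the 18 libraries and relative to wild-type cells of the same table, were found by the root mean square difference of log2 levels. For Prelp they were Wscd2 (0.499) and Leprel1 (0.708), and for Aspn Glis1 (0.424) and Klhl29 (0.437). Wscd2 had -5.88 in H3.3K36M, -8.20 in H3.1K36M and -7.17 in tumor libraries, where Prelp had -5.70, -8.72 and -6.67. For Ogn they were Pak3 (0.810) and Megf9 (0.813), and for Omd Osbpl6 (0.401) and Plin4 (0.441). Lum was closest to Apod (0.767) and Rassf4 (0.854), Dcn to Tlr2 (0.684) and Galnt12 (0.752), and Podn to St3gal1 (0.408) and Slc9a3r2 (0.433). Fmod had no near match, the closest being Kcne2 (1.42) and Kcns1 (1.59). Tlr2, a receptor through which biglycan can signal, stood at -0.80, -2.51 and 2.38 in those groups, beside -0.24, -4.03 and 2.18 for Dcn. The siRNA groups were less alike, with Tlr2 at -0.90 with control siRNA and -0.82 with HMT siRNA. Dcn was at -1.14 with control siRNA and at -0.28 to -0.18 in the HMT siRNA libraries.

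Enzymes that build the sugar chains of these proteins were more often lower than higher in both mutant lines and with HMT siRNA, each against its control. In H3.3K36M cells 15 of 26 were lower and 5 higher, against 34.2% and 35.9% of all genes. Papss2, which makes the sulfate donor (-3.97), and the chondroitin sulfotransferases Chst11 (-3.86) and Chst7 (-3.58) fell most. With HMT siRNA 19 of 26 were lower and 3 higher, against 32.6% and 32.4% of all genes. Papss2 fell there (-2.60), and Chst1, a keratan sulfate sulfotransferase, rose (1.89). Xylt1, whose product starts the chain, had levels of 10.0 to 34.6 with control siRNA and was listed at 0 in 2 HMT siRNA libraries and at 2.24 in the third. In H3.1K36M cells 16 of 26 were lower and 5 higher, against 38.4% and 41.5% of all genes. Control siRNA against wild-type cells had 10 of 26 lower and 10 higher, against 30.7% and 29.2% of all genes. Between the mutant lines 10 of 26 were lower in H3.1K36M cells and 11 higher, against 31.9% and 36.4% of all genes. The difference of responses was lower for 12 of 26 and higher for 9, against 28.3% and 26.2% of all genes. In tumors against H3.3K36M cells 7 of 26 were lower and 12 higher, against 38.2% and 38.0% of all genes. Chst3 was up (3.05) and the sulfate transporter Slc26a2 down (-4.44). B3gnt7 of keratan sulfate synthesis, one of the genes left out of the count, spanned 228 to 478 in the tumors and stood at 1.73 and 3.80 in the cells. The medians were -0.30 in H3.3K36M cells, -0.22 with HMT siRNA, -0.29 in H3.1K36M cells and 0.25 in the tumors.

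Most of the collagens that the family binds fell in the mutant lines. Of 9 collagen genes, 7 were lower and 1 higher in H3.3K36M cells, against 34.2% and 35.9% of all genes, and 8 and 1 in H3.1K36M cells, against 38.4% and 41.5% of all genes. With HMT siRNA 2 were lower and 5 higher, against 32.6% and 32.4% of all genes. Control siRNA against wild-type cells, with no K36M histone in either group, also had 7 of 9 lower and 0 higher. The shares of all genes there were 30.7% and 29.2%. The difference of responses was called lower for 8 of 9, against 28.3% of all genes. Col1a1 was at 0.41 in H3.3K36M cells and 0.86 with HMT siRNA, Col3a1 at -1.50 and 0.04 (not called), and Col6a1 at -1.68 and -0.40. In tumors against H3.3K36M cells 6 fell, led by Col12a1 (-5.24) and Col5a2 (-2.83), and 3 rose, Col14a1 (2.97), Col6a1 and Col6a2, against 38.2% and 38.0% of all genes. The medians were -0.94 in H3.3K36M cells, 0.16 with HMT siRNA, -0.80 in H3.1K36M cells and -1.81 in the tumors.

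Ligands and receptors that the family binds moved in cultured cells about as often as all genes did. Of 16, 5 of 14 counted were lower and 6 higher in H3.3K36M cells, against 34.2% and 35.9% of all genes. Met, a receptor that decorin binds, rose (2.93), and Tgfb2 (-3.50) and Tlr4 (-1.35) fell. With HMT siRNA 5 of 14 were lower and 5 higher, against 32.6% and 32.4% of all genes, with Tgfb2 at -1.48 and Met at 1.18. In the tumors 10 of 14 were lower and 4 higher than in H3.3K36M cells, against 38.2% and 38.0% of all genes. P2rx7, a receptor of macrophages, rose (5.44), and macrophage markers moved as given above. Kdr, the endothelial VEGF receptor, was left out of the count and spanned 214 to 879 in the tumors against 1.73 and 1.90 in the cells. The medians were 0.08 in H3.3K36M cells, 0.05 with HMT siRNA, 0.04 in H3.1K36M cells and -0.97 in the tumors.

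A list of 10 genes held proteases that process or degrade the matrix, and Pcolce, which encodes a protease enhancer. Of these, 6 of 7 counted were lower and 1 higher in H3.3K36M cells, against 34.2% and 35.9% of all genes, and Adamts5 fell (-0.81). Mmp3 was left out of that count, with levels of 0 and 1.07 in wild-type and 10.5 in the lower of the 2 H3.3K36M libraries. With HMT siRNA 4 of 7 were lower and 2 higher, against 32.6% and 32.4% of all genes. In H3.1K36M cells 3 of 7 were lower and 4 higher than in wild-type cells, against 38.4% and 41.5% of all genes. Control siRNA against wild-type cells had 1 of 7 lower and 5 higher, against 30.7% and 29.2% of all genes. In the tumors 3 of 8 were lower and 4 higher than in H3.3K36M cells, against 38.2% and 38.0% of all genes, with Mmp3 at 6.27 and Adamts5 at -3.59. Mmp13 and Tll2 were at 10 or more in the tumors alone and were left out. Mmp13 spanned 101 to 654 there against 3.80 and 4.62 in the cells, and Tll2 had a median of 39.4 against 0 and 0.578. The medians were -0.61 in H3.3K36M cells, -0.23 with HMT siRNA, 0.17 in H3.1K36M cells and 0.82 in the tumors.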

How the data were processed

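RNA was sequenced in 18 libraries of 6 groups named by the labels. The submitters' processing notes name Bowtie 1.0.0, RSEM 1.2.12 and build mm9. Values in the 3 deposited tables (20325 genes each) are a signal: estimated counts divided by a factor per library (called median normalised in the names of the deposited files). Between 35.3% and 56.0% of values were whole reads (tolerance 0.01), so no count test was run. Depth was 13993307 to 56041798 estimated reads per library, and values of a few reads are imprecise.

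Tests used limma 3.58.1 (R 4.3.3) after adding a pseudocount of 1 and taking log2, with eBayes set to trend and robust, two-sided, Benjamini-Hochberg over all genes tested, threshold 0.05. Genes tested had 10 or more in at least 2 libraries of the fit: 10 cultured libraries of the siRNA table (13186 genes), 6 of the xenograft table (13404), or tumors with H3.3K36M and wild-type cells (10 libraries, 14965). The fit was tested on simulated data. Levels per kilobase used the longest coding transcript of GENCODE M21. Upstream sequences came from RefSeq (GRCm38.p6), which matched 8 of 10 members; this is another build than mm9. Python 3.11.15 with numpy 2.4.6, pandas 2.3.3 and matplotlib 3.10.9 did the rest.

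Members and lists were chosen with earlier results of these data known. Named genes were all 10 members, up to 3 called genes with the largest change per list and comparison (shown in other comparisons too), and the 2 nearest profiles per member. Neighbours were the 2 protein-coding genes on each side of each chromosomal group. They, the levels of genes left out of list counts, and Col6a1 and Col6a2 in the tumors, were named after their values were seen. Alternatives were other pseudocounts, filters, scalings, fits and left-out libraries. The profiles most like Bgn are not reported here.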

Additional observations from a re-analysis of the deposited data

Results flagged for a closer look

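Ogn in tumor 6 (529.9) stood apart from the other 5 tumors: the gap to the nearest tumor was 0.639 of the whole range, above the critical value of 0.625 for 6 samples. Chance flags about 1 in 20 groups, and no other tumor value of the 10 genes passed that limit. Tumor 6 also had the lowest sum of skin fibroblast markers and the highest of skeletal muscle markers, and their part in its Ogn level was not tested.

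The responses to H3.3K36M and to HMT siRNA differed by the test of the difference itself for 8 of 9 members tested. Of all 13186 genes tested, 54.9% differed in the same test, 27.4% toward a lower and 27.5% toward a higher mutant response. The log2 difference, mutant response minus knockdown response, was -1.15 for Dcn, -0.77 for Bgn, -2.41 for Fmod, -2.50 for Lum, 0.24 for Omd, -0.77 for Ogn, -1.04 for Aspn and -4.51 for Prelp.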

How the results depend on the processing

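Alternatives covered the pseudocount, the filter on low values, scaling, the trend and robust options, the groups in the fit, the replicate block and leaving out each library. All 548 alternative values of the 32 counts stayed within 1.5 times the main count. Of 1233 alternative fold changes of single members, 1203 kept their direction and side of the threshold, 20 lost the call, 8 gained one and 2 reversed. Podn in the difference of responses turned from -0.17 to 0.047 without control siRNA replicate 1 (adjusted p = 0.891; the lowest with 1 library left out was -0.37, without control siRNA replicate 2), and Bgn in control siRNA against wild-type cells from -0.03 to 0.053 under quantile scaling (adjusted p = 0.749). Neither was called in these fits, and the cause was not tested. Podn with HMT siRNA was called at a pseudocount of 10 (adjusted p = 0.0403). Fmod between the mutant lines was not called with those 2 groups alone (adjusted p = 0.0604) or without the trend and robust options (adjusted p = 0.144). Aspn in control siRNA against wild-type cells was not called without the trend and robust options (adjusted p = 0.0663). Same-numbered replicates did not deviate together (correlations of -0.0018 to 0.0789), so they are not taken as pairs. With the replicate block, Podn with HMT siRNA (-0.43, adjusted p = 0.0453) and Fmod in tumors against H3.3K36M cells (-1.19, adjusted p = 0.00571) passed the threshold, and no other member's call changed. Depth limits Kera, Fmod with HMT siRNA and Lum in H3.1K36M cells, which rest on few reads.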
